A study of Mus musculus with 9 samples.

Results

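The immunity-related GTPases (IRG) and guanylate-binding proteins (GBP) are effector families that interferon switches on in mouse cells. Of the 54838 genes counted in the series, 10 are described here: the IRG genes Iigp1, Tgtp1, Tgtp2, Irgm1, Irgm2 and Igtp, and the GBP genes Gbp2, Gbp3, Gbp7 and Gbp9. They were taken from a list of symbols and chosen for their values in melanoma cells given hypochlorous acid (HOCl) against untreated melanoma cells, so that contrast is given for them as a description, with no test. The series held 9 libraries: B16F10 with 600 µM HOCl for 5 h (3 libraries), B16F10 without it (3), CD8+ T cells with the same HOCl (1) and CD8+ T cells without it (2). B16F10 is an established melanoma line of C57BL/6 mice, and the T cells were selected with a kit from spleens of adult mice of that strain. HOCl is the oxidant that neutrophils make with myeloperoxidase. The labels name no transgene, no interferon treatment and no count of mice, and do not state whether replicates were separate cultures or animals, so a p-value here weighs library-to-library spread alone, which may be technical.

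Interferons signal through receptor-bound JAK kinases to transcription factors; those of interferon gamma bind GAS elements, and those of type I interferons, IRF9 among them, bind mainly ISRE elements. Many genes of both families are induced strongly by interferon gamma in macrophages, fibroblasts and other cells. Their products are GTP-binding proteins that gather on the vacuoles of intracellular parasites and bacteria. Iigp1 (Irga6) and the Tgtp products (Irgb6) coat and break such vacuoles, whereas Irgm1, Irgm2 and Igtp (Irgm3) sit on membranes of the host and hold the coating IRG proteins inactive there. GBPs are larger, dynamin-like GTPases, several of them anchored to membranes by a prenyl group.

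The sequence just upstream of the members' start sites carried both kinds of interferon element, and the stretches are shown because the placing of the elements divides the members. The windows were the 250 bases before each RefSeq start (GRCm38.p6). They were searched on both strands for ISRE as GAAANNGAAA and for GAS as TTCNNNGAA. The table held a window for 8 of the 10 members, and Iigp1 and Gbp9 are named only. Below, lower case is flanking sequence of up to 20 bases and capitals are the matches, 5′ to 3′ on the strand of the gene.
Tgtp1 (chr11:48992294-48992354, minus strand): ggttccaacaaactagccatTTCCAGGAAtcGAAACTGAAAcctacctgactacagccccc
Tgtp2 (chr11:49064253-49064313, minus strand): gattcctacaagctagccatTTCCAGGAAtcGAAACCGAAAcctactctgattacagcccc
Irgm2 (chr11:58214882-58214942, plus strand): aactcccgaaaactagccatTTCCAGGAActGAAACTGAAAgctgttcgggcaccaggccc
Igtp (chr11:58199491-58199551, plus strand): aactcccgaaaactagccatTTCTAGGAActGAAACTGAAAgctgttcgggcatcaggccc
Irgm1 (chr11:48871421-48871470, minus strand): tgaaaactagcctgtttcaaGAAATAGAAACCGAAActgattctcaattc
Gbp7 (chr3:142530210-142530312, plus strand): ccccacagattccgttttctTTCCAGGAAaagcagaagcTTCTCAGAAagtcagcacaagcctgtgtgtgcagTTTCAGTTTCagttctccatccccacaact
Gbp3 (chr3:142559979-142560034, plus strand): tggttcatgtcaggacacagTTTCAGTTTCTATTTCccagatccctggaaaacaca
Gbp2 (chr3:142620584-142620633, plus strand): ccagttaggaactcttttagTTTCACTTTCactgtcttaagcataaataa

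All 8 members with a window had at least 1 ISRE match, which 2.98% of the 32851 mouse windows had, and 5 of them had a GAS match, which 7.02% of windows had. Tgtp1, Tgtp2, Irgm2 and Igtp held a GAS, a gap of 2 bases and then an ISRE, in that order on the gene's strand. This arrangement occurred in 5 of the 32851 windows (0.0152%), and the other window belonged to Gm12185. That further IRG gene shares 223 exonic bases with Tgtp1 on the same strand. The ISRE of these members lay 77 to 68 bases before the start in Tgtp1, 70 to 61 in Tgtp2, 64 to 55 in Irgm2 and 34 to 25 in Igtp. Irgm1 had a pair of overlapping ISRE matches and Gbp3 likewise, Gbp2 had 1 ISRE, and none of these 3 windows had a GAS match. Gbp3 had a further RefSeq start whose window held no match. In Gbp7 a pair of GAS matches stood apart from an ISRE on the opposite strand. The elements were not particular to the members: of further IRG and GBP genes, Gm12250 and Gbp5 held both kinds of match and Gbp2b an ISRE. The windows of Ifi47, Gm5431, 9930111J21Rik1, 9930111J21Rik2 and Irgq held no match. A match describes letters and does not show that a factor binds, and a missing match says only that these letters were not in the window. The windows of Igtp and Irgm2 were identical in 68.1% of aligned positions and those of Tgtp1 and Tgtp2 in 61.5%, gaps included.

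Library totals were 45.9 to 61.3 M counts, apart from 12.8 M in the T cell HOCl library. All 8 melanocyte markers of a fixed list were present in each B16F10 library, at a summed 24160 to 25190 counts per M counts (CPM), and all 11 T cell markers were above 1 CPM in both untreated T cell libraries. B cell markers summed to 1264 and 2362 CPM in the untreated T cells, of which Ighm alone made up 1242 and 2332 CPM, while each of the other 6 stood at 0.801 to 10.8 CPM. The T cell HOCl library stood apart: melanocyte markers summed to 6759 CPM in it, 27.4% of the B16F10 HOCl mean, against 102 and 25.7 CPM in untreated T cells, T cell markers summed to 698 CPM against 4429 and 4889 CPM, mitochondrial transcripts took 37.4% of its counts against 1.55% and 2.11%, and 44225 genes had a count against 25616 and 22855. In B16F10 HOCl replicate 3, T cell markers summed to 40.3 CPM, against 5.28 to 6.65 CPM in the other B16F10 libraries. In bulk RNA, fewer cells of a type and less RNA per cell cannot be told apart.

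In B16F10 cells all 10 transcripts were lower on average with HOCl, and together they summed to 229, 217 and 238 CPM in the HOCl libraries, against 388, 390 and 365 CPM in the untreated libraries. For 9 of the 10, each HOCl library lay below each untreated library, and Gbp9 overlapped. How many of all genes separated in this way was not counted, so nothing is read from the 9. Tgtp2, Tgtp1 and Iigp1, the vacuole-coating group, stood furthest down, at 32.1 to 36.8% of the untreated mean. Tgtp1 and Tgtp2 are near-identical copies and may not be separate cases. The place of Tgtp1 depended on its low counts: with 0.5 CPM added to group means its log2 ratio was -0.80. Under that setting Gbp3 had -0.89, Gbp7 -0.86, Tgtp2 -1.54 and Iigp1 -1.21. The membrane-guarding Irgm1, Irgm2 and Igtp stood at 62.4%, 68.8% and 57.5% of the untreated mean, and the GBP genes at 53.5 to 64.6%. Over all 16082 genes tested in B16F10 by the quasi-likelihood test of edgeR at an adjusted p of 0.05, 13.5% were lower (2178, and 1432 or 1410 without HOCl replicate 2 or 3) and 14.7% higher. Since the members were chosen on this contrast, nothing is read from how their count compares with these shares. With all 9 libraries in 1 fit, 26 genes were lower and 11 higher.

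**Figure D1:**
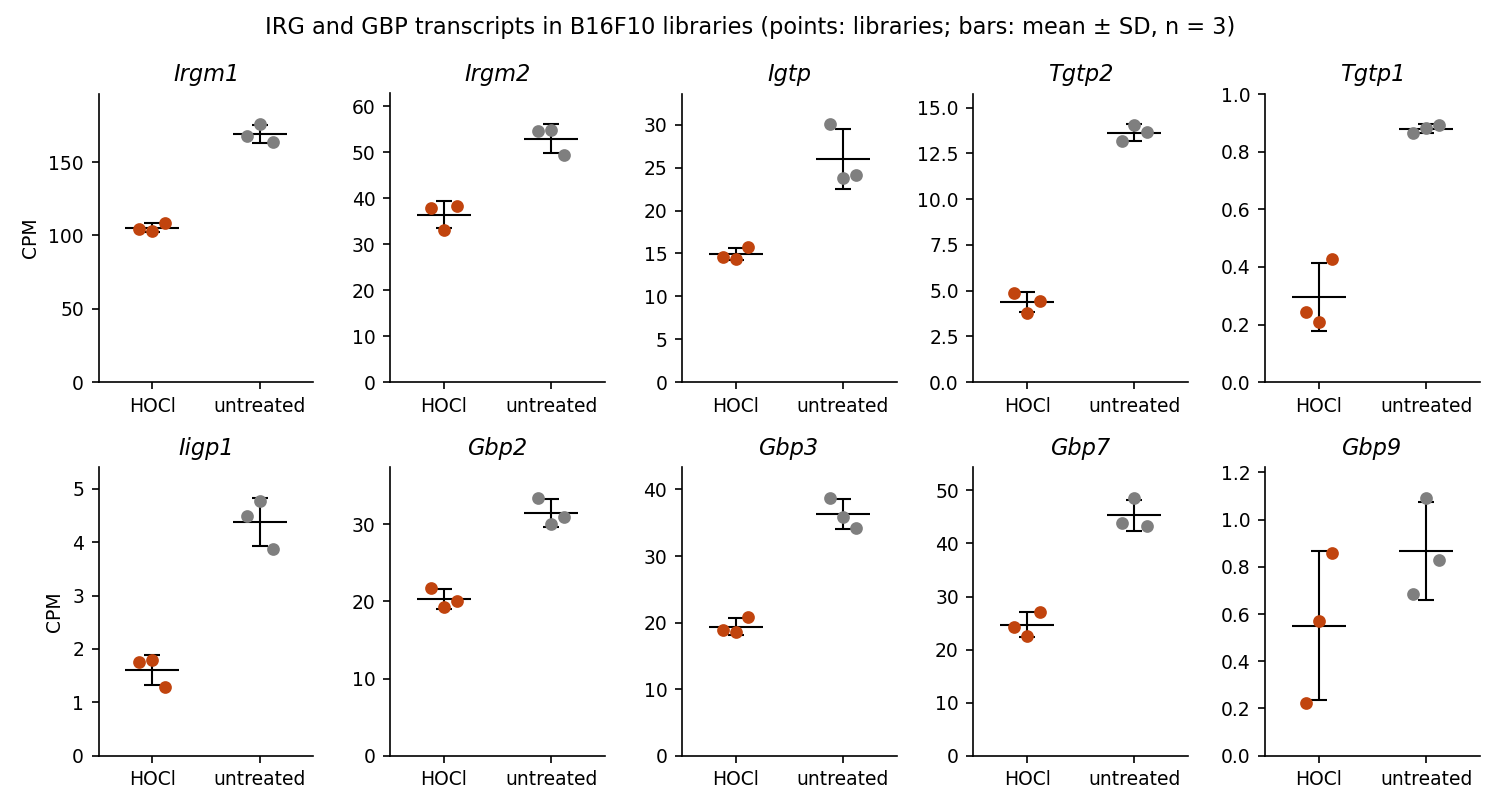
CPM of the 10 transcripts in B16F10 cells, 1 panel per gene, with HOCl libraries left and untreated libraries right (points), and mean ± SD (bars, n = 3 per group). Every axis starts at 0; the groups are apart in 9 panels and overlap in that of Gbp9.

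Among the coating IRG genes, Iigp1 had 1.76, 1.79 and 1.29 CPM in HOCl libraries, against 4.48, 4.77 and 3.88 CPM in untreated libraries. Its highest HOCl library lay below its lowest untreated one, and its log2 fold change was -1.47 ± 0.18 (SE). Tgtp2 had 4.88, 3.78 and 4.44 CPM with HOCl, against 13.2, 14.1 and 13.6 CPM untreated, a log2 fold change of -1.67 ± 0.10. The groups did not overlap, which describes values that served to choose the members. Tgtp1 had 0.245, 0.209 and 0.429 CPM with HOCl, against 0.864, 0.882 and 0.893 CPM untreated, or 12, 11 and 22 counts against 53, 42 and 41. Its HOCl replicate 3, the library with the added T cell marker RNA, was the highest of its group; the log2 fold change was -1.60 ± 0.35 over all libraries and -1.97 without that library.

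Tgtp1 and Tgtp2 are near-identical copies, and how the counting split reads between them is not given in the sources used here. Their longest coding sequences had 1241 of 1245 bases in common (99.7%). Of the 50-base stretches of their exons, 81.2% for Tgtp1 and 86.6% for Tgtp2 also occurred in another gene, and of the 100-base stretches 73.1% and 76.8%. The pair summed to 5.12, 3.99 and 4.87 CPM in HOCl libraries, against 14.0, 14.9 and 14.5 CPM in untreated libraries. Fitted as 1 gene, the pair had a log2 fold change of -1.67. The sum does not depend on how reads were split between the copies. Reads left out for matching both would be missing from the sum as well, and whether any were left out is not known.

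**Figure D2:**
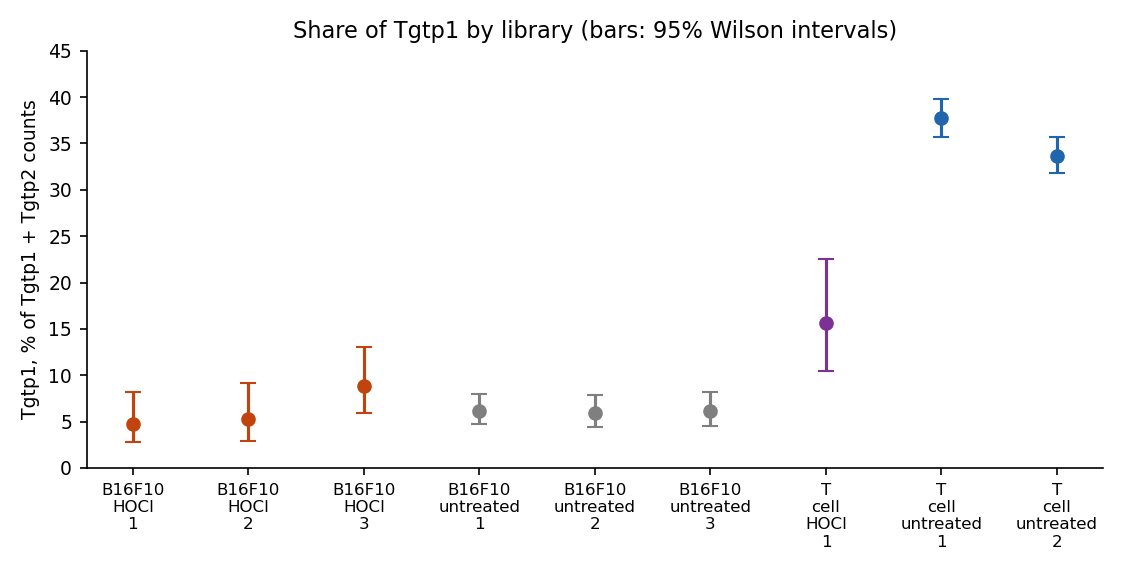
Share of Tgtp1 in the counts of Tgtp1 and Tgtp2 together, by library, with 95% Wilson intervals that cover counting error only. All 6 B16F10 libraries lie between 4.78 and 8.8%, the T cell HOCl library at 15.6% and the untreated T cells at 37.8 and 33.7%.

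Tgtp1 took 4.78% (95% Wilson interval 2.76 to 8.17), 5.24% (2.95 to 9.13) and 8.8% (5.88 to 13) of the pair's counts in B16F10 HOCl libraries, against 6.16%, 5.9% and 6.15% in untreated B16F10. The intervals of all 6 B16F10 libraries overlapped. In T cells the share was 15.6% (10.5 to 22.5) in the HOCl library, against 37.8% and 33.7% in the untreated libraries, whose lower bounds were 35.7% and 31.8%. It was higher in all 3 T cell libraries than in any B16F10 library.

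Irgm1, the master regulator among the membrane-guarding IRG proteins, had the highest level per exon length of the members in B16F10. It had 105, 103 and 109 CPM with HOCl, against 168, 176 and 164 CPM untreated, a log2 fold change of -0.71 ± 0.05. Its groups did not overlap, and this too is description only. Irgm2 had 37.8, 33.1 and 38.4 CPM with HOCl, against 54.6, 54.9 and 49.4 CPM untreated, and a log2 fold change of -0.57 ± 0.07, the smallest of the 10. Igtp had 14.6, 14.4 and 15.8 CPM with HOCl, against 30.0, 23.8 and 24.1 CPM untreated, a log2 fold change of -0.83 ± 0.09. Untreated replicate 1 was the highest of its group for Igtp. Igtp and Irgm2 share 162 exonic bases on the same strand, so a small part of their reads cannot be assigned.

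The 3 GBP genes on chromosome 3 were lower in every HOCl library than in any untreated one. Gbp2, whose product is prenylated and is recruited to parasite vacuoles, had 21.7, 19.2 and 20.02 CPM with HOCl, against 33.4, 30.0 and 30.9 CPM untreated, a log2 fold change of -0.66 ± 0.07. Gbp3 had 18.8, 18.5 and 20.8 CPM with HOCl, against 38.7, 35.8 and 34.3 CPM untreated, with -0.93 ± 0.07. Gbp7, linked in macrophages to assembly of the phagocyte oxidase, had 24.3, 22.5 and 27.2 CPM with HOCl, against 43.9, 48.6 and 43.3 CPM untreated, with -0.90 ± 0.08. Gbp7 shares 637 exonic bases with Gm43802 on the same strand, and 12.7% of its 50-base stretches also occurred in another gene. Since the members were chosen on this contrast, the distance between the groups is a description only.

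Gbp9 was the exception. It had 0.225, 0.571 and 0.857 CPM in HOCl libraries, against 0.685, 1.09 and 0.828 CPM in untreated libraries, and the groups overlapped. Its log2 fold change of -0.67 ± 0.41 moved to -1.13 without HOCl replicate 3 and to -0.30 without HOCl replicate 1. HOCl replicate 3, with the T cell markers at 40.3 CPM, was the highest of the 3, and Gbp9 stood at 105 and 44.1 CPM in untreated T cells; the part of that RNA in the Gbp9 value was not tested.

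In the authors' deposited table for B16F10, whose columns do not name the direction by treatment, the log2 fold change was negative for all 10. It was -1.47 for Tgtp2, -1.07 for Iigp1, -0.59 for Tgtp1 and -0.24 for Gbp9, each nearer to 0 than the value fitted here, and -0.69 for Irgm1.

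Per kilobase of exon, Irgm1 led in B16F10, at 18.1 ± 0.506 CPM per kb with HOCl and 29.1 ± 1.06 CPM per kb untreated (SD, n = 3 each). It made up 32.5% of the members' summed level per length with HOCl and 31.0% without. In untreated B16F10 the order was Irgm1, Irgm2 (14.4), Igtp (12.8), Gbp2 (12.5), Gbp3 (11.1), Gbp7 (8.07), Tgtp2 (4.64), Iigp1 (0.751), Tgtp1 (0.274) and Gbp9 (0.168 CPM per kb). Neighbours in this order did not overlap between libraries, except Irgm2 with Igtp and Igtp with Gbp2. In HOCl libraries Gbp2 (8.08) stood ahead of Igtp (7.38), and Gbp9 (0.106) ahead of Tgtp1 (0.0918 CPM per kb), and both of these pairs overlapped between libraries.

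**Figure D3:**
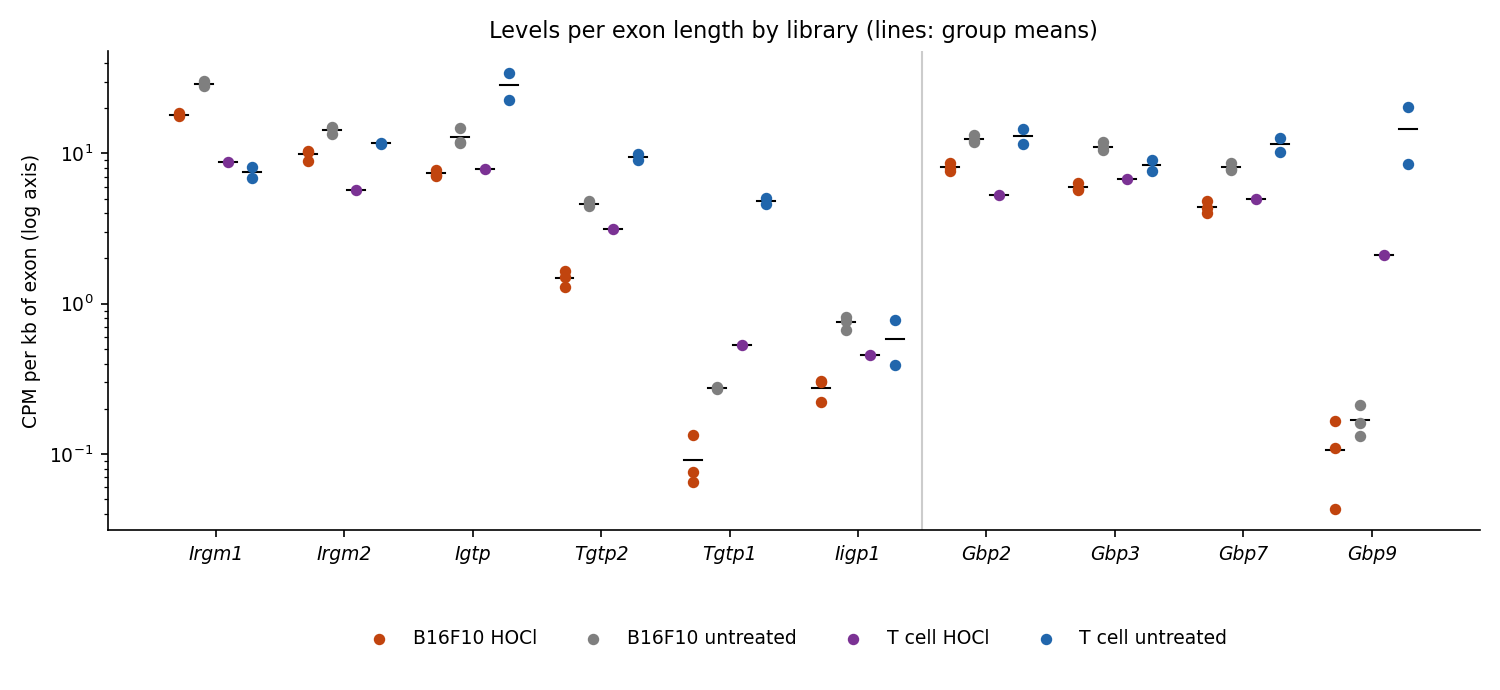
Level of each transcript in CPM per kilobase of exon, on a log axis, for every library (points) with group means (lines), IRG genes left and GBP genes right of the grey line. Tgtp1 and Gbp9 lie far lower in B16F10 than in untreated T cells, while Irgm1 lies higher in B16F10.

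The cell types were set against each other without treatment, in a comparison that shares the untreated B16F10 libraries with the one above but was not used to choose the members. Irgm1 was higher in B16F10, 5 members were lower and 4 did not pass the threshold. Over all 18352 genes tested 35.8% were higher and 35.4% lower in B16F10, with a median log2 fold change of -0.02, and the median of the members was -0.52. The members together reached like sums, 388, 390 and 365 CPM in untreated B16F10 and 414 and 367 CPM in untreated T cells. Some members differed in weight and others did not. By mean CPM, Irgm1 in B16F10 stood at 389% of its T cell level and Gbp9 at 1.16%, while Gbp2 stood at 96.5%.

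Irgm1 averaged 169 ± 6.13 CPM in untreated B16F10 (SD, n = 3) and 43.4 ± 4.89 CPM in untreated T cells (SD, n = 2). The log2 fold change was 1.71 ± 0.17 with an edgeR adjusted p of 0.000312 (quasi-likelihood F test, Benjamini-Hochberg), and it stayed between 1.51 and 1.96 under the alternatives tried. Gbp9 was the furthest apart in the other direction, at 0.868 ± 0.207 CPM in B16F10 and 74.7 ± 43.3 CPM in T cells, with a log2 fold change of -6.65 ± 0.43 and an edgeR adjusted p of 6.09e-05. The 2 T cell libraries themselves differed widely for Gbp9, at 105 and 44.1 CPM.

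Tgtp1 averaged 0.880 ± 0.0148 CPM in B16F10 and 15.5 ± 0.864 CPM in T cells, a log2 fold change of -4.38 ± 0.23 with an edgeR adjusted p of 2.45e-05. Tgtp2 averaged 13.6 ± 0.448 CPM in B16F10 and 27.9 ± 1.90 CPM in T cells, with -1.28 ± 0.17 and 0.000948. The pair fitted as 1 gene gave -1.83 with an edgeR adjusted p of 0.000146. Igtp, at 25.98 ± 3.52 CPM in B16F10 and 57.9 ± 16.8 CPM in T cells, was lower, at -1.42 ± 0.25 (edgeR adjusted p 0.00353). Gbp7, at 45.3 ± 2.88 CPM in B16F10 and 64.5 ± 9.61 CPM in T cells, was lower, at -0.75 ± 0.14 (edgeR adjusted p 0.00437). The call ended with the replicate number as a block (edgeR adjusted p 0.122). Same-numbered libraries of the 2 cell types did not deviate together (correlations -0.36 and -0.31), so that block stands for no pairing seen in the data.

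Irgm2, Iigp1, Gbp2 and Gbp3 had log2 fold changes of 0.05 ± 0.15, 0.14 ± 0.35, -0.29 ± 0.16 and 0.16 ± 0.18 and did not pass the threshold, which does not show equal levels. Irgm2, Iigp1 and Gbp3 changed sign under some alternatives. Gbp2 passed as lower with all libraries kept under other settings. It had -0.48 with a filter of 1 CPM and 50 mean counts (edgeR adjusted p 0.0253) and -0.35 with DESeq2 (DESeq2 adjusted p 0.032). Under either of these settings 6 members were lower, beside 5227 of 13511 genes tested with the filter and 6907 of 18352 with DESeq2. The values also depended on the T cell replicate: Iigp1 had 0.66 without T cell replicate 1, and without T cell replicate 2 Gbp3 had 0.40 and Gbp2 -0.34. Each of these last fits keeps 1 T cell library, which is assumed to vary like the B16F10 libraries, so only the sizes are given. Irgm2 stood at 53.0 ± 3.11 CPM in B16F10 and 43.1 ± 0.571 CPM in T cells, higher in every B16F10 library before TMM scaling. Iigp1 had 4.48, 4.77 and 3.88 CPM in B16F10, against 4.55 and 2.27 CPM in T cells, and the groups overlapped. Without TMM the median of all genes moved to 0.22.

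Per kilobase, untreated T cells had Igtp first (28.6 ± 8.29 CPM per kb, n = 2), then Gbp9 (14.5), Gbp2 (12.9), Irgm2 (11.7), Gbp7 (11.5), Tgtp2 (9.48), Gbp3 (8.36), Irgm1 (7.48), Tgtp1 (4.83) and Iigp1 (0.585). From Gbp9 to Gbp7 each neighbour overlapped with the next, and likewise from Tgtp2 to Irgm1. Iigp1 was last in T cells and among the lowest in B16F10.

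**Figure D4:**
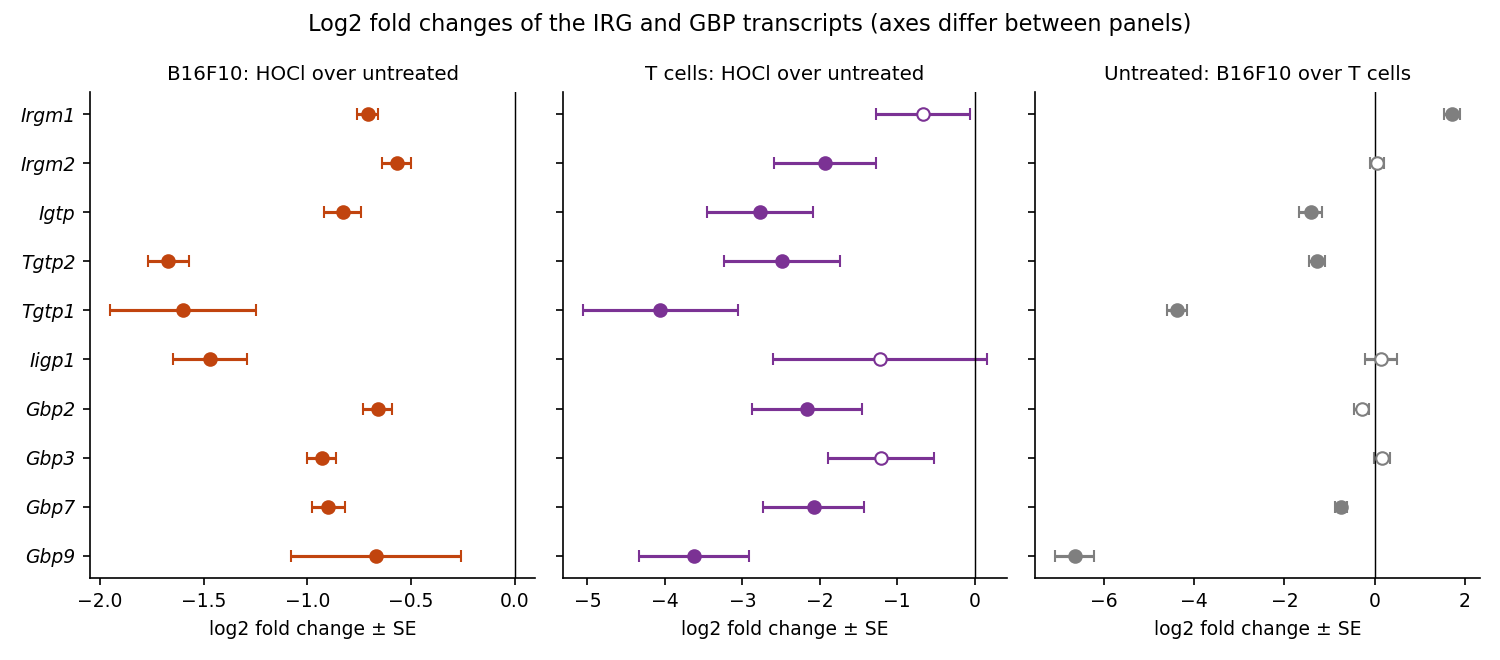
Log2 fold changes with SE from edgeR for the 10 transcripts: B16F10 HOCl over untreated (left, all filled and given without a test), T cells HOCl over untreated (middle) and untreated B16F10 over untreated T cells (right). In the middle and right panels a filled point passed an adjusted p of 0.05; the axes differ between panels.

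The T cell comparison set the 1 HOCl library against 2 untreated libraries, so how HOCl libraries vary was not measured, and it shares the untreated T cells with the comparison of cell types. In it 7 members were lower and 0 higher past the threshold by edgeR, beside 14.9% lower and 48.1% higher of all 32499 genes tested. The median log2 fold change was -2.13 over the members and 3.14 over all genes tested. With library totals in place of TMM, and with a filter of 1 CPM and 50 mean counts, 3 members were lower, namely Tgtp1, Igtp and Gbp9. Over all genes, 1928 of 32499 tested were lower with library totals and 1695 of 14687 with that filter. The median over all genes was 4.04 and 0.06 under these settings. The low T cell marker sum, the melanocyte markers and the mitochondrial share of this library moved with every value in it, and their part was not tested.

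Gbp9 had 10.9 CPM in the T cell HOCl library (95% exact Poisson interval 9.17 to 12.9, counting error only), against 105 and 44.1 CPM untreated, with a log2 fold change of -3.62 ± 0.71 and an edgeR adjusted p of 9.20e-06. Tgtp1 had 1.71 CPM (1.07 to 2.59), against 16.1 and 14.9 CPM untreated, with -4.06 ± 1.00 (edgeR adjusted p 0.000389). By CPM, the T cell markers in that library were at 15% of their untreated mean; Tgtp1 (11.1%) and Gbp9 (14.6%) were under that share of their own untreated means, and the other 8 members stood at 27.7 to 117% of theirs. Igtp had 16.03 CPM (13.9 to 18.4), against 46.1 and 69.8 CPM untreated, with -2.77 ± 0.68 (edgeR adjusted p 0.000365). With library totals the log2 fold changes of these 3 were nearer to 0, at -2.77 for Gbp9, -3.17 for Tgtp1 and -1.84 for Igtp, with the stricter filter they were -2.70, -3.14 and -1.85 in the same order, and Gbp9 had -2.85 without untreated T cell replicate 1. In the HOCl library Tgtp2 had 9.26 CPM, Irgm2 21.1, Gbp2 13.3 and Gbp7 28.02 CPM. In the 2 untreated libraries Tgtp2 had 26.5 and 29.2 CPM, Irgm2 42.7 and 43.5, Gbp2 36.3 and 28.9, and Gbp7 71.3 and 57.7 CPM. These 4 were called lower by the edgeR test (adjusted p 0.00311, 0.008, 0.00591 and 0.00393) and were not called with library totals (adjusted p 0.0614, 0.176, 0.111 and 0.0966).

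Irgm1, Iigp1 and Gbp3 did not pass. Irgm1 had 51.0 CPM (47.2 to 55.0) in the T cell HOCl library, against 40.0 and 46.9 CPM untreated, so in CPM it was higher, while its TMM-scaled log2 fold change was -0.67 ± 0.61 (edgeR adjusted p 0.329). The sign depended on scaling: it was 0.24 with library totals and 0.25 with the stricter filter. In B16F10, where Irgm1 was the leading member, HOCl libraries had 103 to 109 CPM. Gbp3 had 22.1 CPM (19.6 to 24.8) in the T cell HOCl library, against 25.1 and 29.6 CPM untreated, and Iigp1 2.65 CPM (1.83 to 3.70) against 4.55 and 2.27 CPM. In the same library, IRG genes that were under 1 CPM in every other library stood at 2.65 to 4.90 CPM. These were Gm4841, Gm4951, F830016B08Rik, Gm5431 and Irgc1, and the level of Iigp1 there was not above theirs. Gbp2b and Gbp11, likewise under 1 CPM in every other library, had 4.1 and 8.95 CPM in it. Tgtp1, at 1.71 CPM, lay below all of these genes, and Tgtp2 (9.26 CPM) and Gbp9 (10.9 CPM) lay little above Gbp11. The part of such a background in the members' values was not tested.

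The families have further genes, and the same comparisons were read for 18 of them. In T cells, with the 1 HOCl library, all 18 were tested and they did not move as the members did. By edgeR 6 were lower and 5 higher, beside 14.9% lower and 48.1% higher of all genes tested. Their median log2 fold change there was 0.12, against -2.13 for the members and 3.14 for all genes. In B16F10 given HOCl, 8 were abundant enough to test: 3 were lower, 1 was higher and 4 did not pass, beside 13.5% lower and 14.7% higher of all genes tested, and their median log2 fold change was -0.41 against -0.01 for all genes. Ifi47 (Irgd), an IRG gene beside Tgtp2, had 4.45, 3.27 and 4.32 CPM with HOCl, against 9.59, 7.83 and 7.63 CPM untreated, a log2 fold change of -1.09 ± 0.14 (edgeR adjusted p 0.00018). Gm4951 stood at 0.117 CPM with HOCl and 0.497 CPM untreated on average (-2.08 ± 0.44, edgeR adjusted p 0.00424). Gbp6 stood at 1.48 CPM with HOCl and 2.86 CPM untreated (-0.98 ± 0.26, edgeR adjusted p 0.0136), and its call ended without HOCl replicate 1 (0.0618).

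Irgq, a diverged IRG gene, was higher, with 59.3, 60.6 and 64.5 CPM in HOCl libraries, against 38.3, 42.8 and 43.1 CPM in untreated B16F10, a log2 fold change of 0.54 ± 0.06 (edgeR adjusted p 8.31e-05). Gbp5 (-0.50 ± 0.34), Gbp4 (0.26 ± 0.74), 9930111J21Rik2 (-0.31 ± 0.29) and 9930111J21Rik1 (0.31 ± 0.56) did not pass, and none exceeded 1.48 CPM in any B16F10 library. Gbp4 had 0.838 CPM in HOCl replicate 3, against 0.123 and 0.0951 CPM in the other HOCl libraries, and its log2 fold change was -1.42 without replicate 3. The remaining 10 genes (Gm12250, Gm12185, Gm4841, F830016B08Rik, Gm5431, Irgc1, Gbp2b, Gbp8, Gbp10 and Gbp11) had 0 to 0.37 CPM in B16F10 libraries and were too low to test, with the highest value for Gbp8 in HOCl replicate 3.

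Between the cell types without treatment, 15 of the 18 were tested: 12 were lower in B16F10 and 1 was higher, beside 35.4% lower and 35.8% higher of all genes tested, and their median log2 fold change was -4.45 against -0.52 for the members and -0.02 for all genes. Gbp4 averaged 0.283 CPM in B16F10 and 144 CPM in T cells (log2 fold change -9.17 ± 0.44, edgeR adjusted p 2.14e-05). Gbp8 had 5, 2 and 0 counts in B16F10, against 2891 and 1706 counts in T cells (-10.13 ± 0.57, edgeR adjusted p 3.81e-05); with so few counts in B16F10 the size of this value is loose, and it was -11.17 without untreated B16F10 replicate 1. 9930111J21Rik2 averaged 1.32 CPM in B16F10 and 167 CPM in T cells (-7.21 ± 0.30, edgeR adjusted p 1.41e-05), and Ifi47 8.35 CPM in B16F10 and 106 CPM in T cells (-3.90 ± 0.18, 1.93e-05). Gm4951 was the gene called higher in B16F10, with 31, 20 and 26 counts in B16F10, against 3 and 0 counts in T cells (edgeR adjusted p 0.0113). Its T cell counts are too few to give a size: the fitted log2 fold change of 3.75 moved to 7.62 without T cell replicate 1 and to 2.87 without replicate 2. Irgq (-0.27 ± 0.33) and Gbp6 (-0.81 ± 0.39) did not pass. With 1 T cell library left, Irgq took opposite signs, at 0.44 without T cell replicate 1 and -0.69 without replicate 2. Gbp6 had -1.08 without replicate 2. On chromosome 5 Gbp9 overlaps Gbp8 and Gbp4 by 60 exonic bases each, and Gbp8 overlaps Gbp4 by 61.

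Genes of the interferon pathway were read from fixed lists in B16F10 given HOCl, where 13.5% of all genes tested were lower and 14.7% higher. Of the kinases and transcription factors, 5 of 11 tested were lower and 1 was higher, with a median log2 fold change of -0.03. Irf7, a factor that interferon itself induces, had 9.90, 8.56 and 9.35 CPM with HOCl, against 23.9, 18.3 and 18.1 CPM untreated (-1.15 ± 0.11, edgeR adjusted p 3.38e-05). Its groups were apart and untreated replicate 1 was the highest library. Irf9, the DNA-binding part of the complex that type I interferon sends to ISRE elements, had 55.0, 55.2 and 61.3 CPM with HOCl, against 73.1, 73.1 and 68.8 CPM untreated (-0.35 ± 0.06, edgeR adjusted p 0.000898), and its groups did not overlap. Nlrc5, the activator of class I genes, was lower, at -0.46 ± 0.10 (edgeR adjusted p 0.00467), and Jak1, a kinase of both receptor types, was higher by 0.21 ± 0.06 (0.0174), a call that ended without HOCl replicate 2 or 3 (0.0723 and 0.0814).

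Of 4 ligand and receptor genes tested, Ifnar1, a chain of the type I receptor, was higher (0.24 ± 0.05, edgeR adjusted p 0.00664) and 0 were lower, beside 14.7% and 13.5% of all genes tested. Ifngr1, the ligand-binding chain for interferon gamma, had 18.9, 18.2 and 30.6 CPM with HOCl, against 16.7, 16.6 and 16.5 CPM untreated (0.42 ± 0.17, edgeR adjusted p 0.107). The highest was HOCl replicate 3, the library with T cell marker RNA, and untreated T cells had 806 and 1367 CPM of Ifngr1. Against T cells, untreated B16F10 had less Ifngr1 (-6.30 ± 0.32, edgeR adjusted p 2.67e-05), and Ifng was at 0 counts in every untreated B16F10 library.

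Among inhibitors of interferon signalling, 3 of 8 were lower and 0 higher, beside 13.5% and 14.7% of all genes tested. They were Usp18, the brake on the type I receptor, at 40.8 CPM with HOCl and 85.6 CPM untreated (-1.10 ± 0.08, edgeR adjusted p 7.75e-06), Socs1, an inhibitor of JAK kinases, at 1.47 CPM with HOCl and 2.59 CPM untreated (-0.84 ± 0.18, 0.00441), and Ptpn6, a phosphatase, at 18.7 CPM with HOCl and 27.1 CPM untreated (-0.56 ± 0.07, 0.000131). Of the dynamin-like Mx and very large inducible GTPase genes, 2 of 3 tested were lower, Mx1 (-0.48 ± 0.11, edgeR adjusted p 0.00504) and Mx2 (-0.42 ± 0.09, 0.00479).

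The ATG8 lipidation machinery governs where IRG and GBP proteins load. Of its 13 listed genes, vacuole ubiquitin factors included, 5 were higher and 1 lower, beside 14.7% and 13.5% of all genes tested. Gabarapl1, an ATG8 protein, was higher by 0.86 ± 0.05 (edgeR adjusted p 9.66e-07), Sqstm1, the p62 adaptor, by 0.47 ± 0.05 (6.52e-05) and Atg12 by 0.39 ± 0.05 (0.00019), while the ligase gene Trim21 had -0.26 ± 0.07 (0.0177), a call that ended without HOCl replicate 2 or 3 (0.0959 and 0.053). Of 6 prenylation enzyme genes, 1 was lower, a share near the 13.5% of all genes: Rce1 (-0.19 ± 0.06, edgeR adjusted p 0.0391), a call that ended with library totals (0.0679) and without any 1 library other than untreated replicate 2 (0.067 to 0.152). Of 5 inflammasome and pyroptosis genes tested, 1 was lower, too few to set against that share: Pycard, which encodes the adaptor ASC (-0.74 ± 0.21, edgeR adjusted p 0.0179), and it lost its call without HOCl replicate 1 or 2 (0.0744 and 0.0662). With all 9 libraries in 1 fit, Ifi47 and Usp18 kept their calls and the other family and pathway genes named as called in B16F10 lost theirs.

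**Figure D5:**
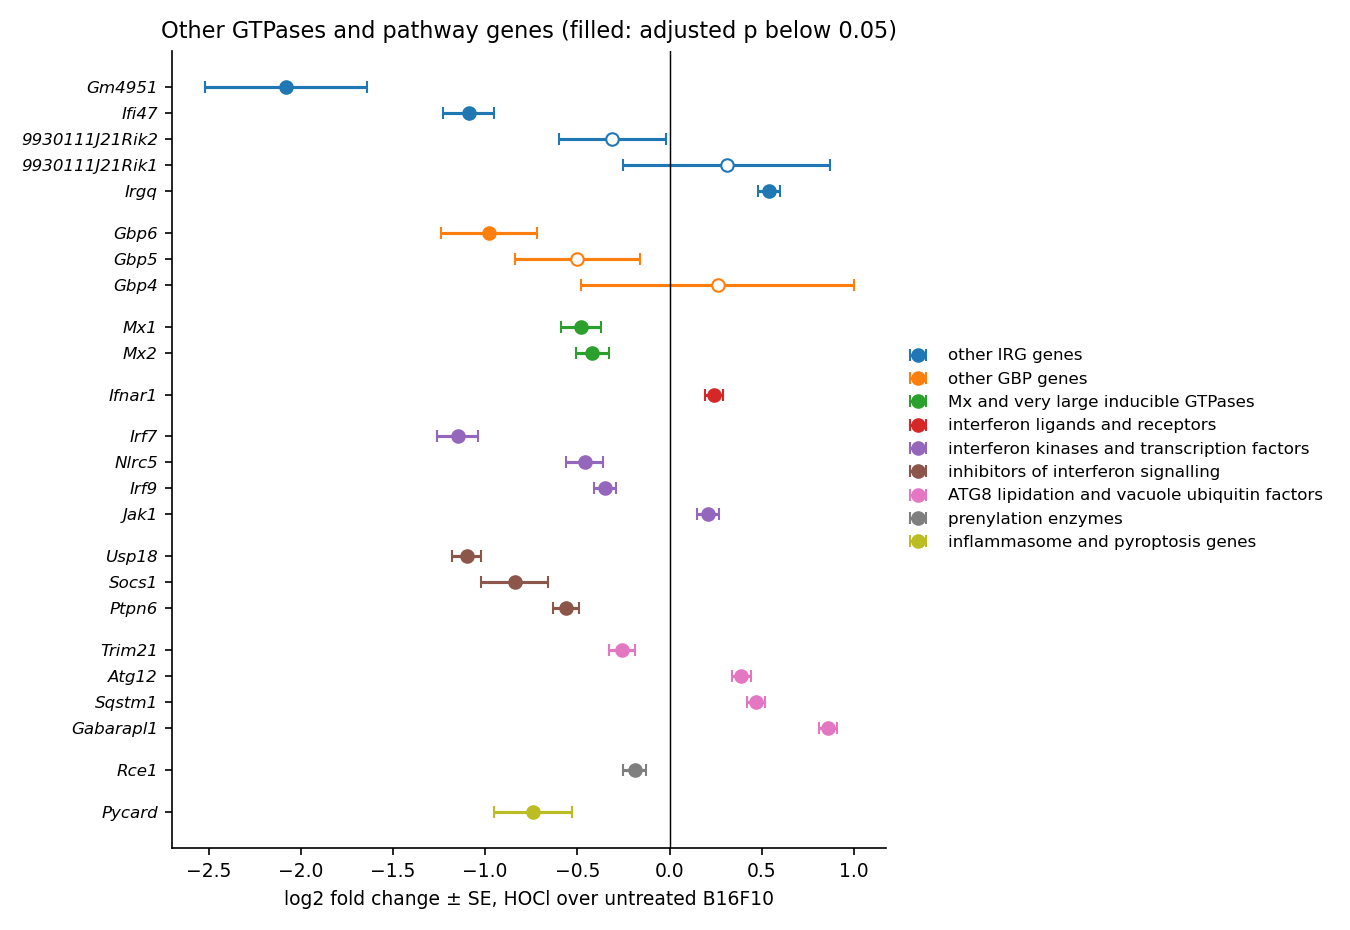
Log2 fold changes with SE, HOCl over untreated B16F10, for further IRG and GBP genes tested and for the pathway genes named by the fixed rule, coloured by list. Filled points passed an edgeR adjusted p of 0.05; Irf7, Ifi47 and Usp18 lie near -1.1, and Gabarapl1 is the highest at 0.86.

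The members lie in clusters, and their neighbours were read in the same contrast. On GRCm38 (GENCODE M21) Irgm1 spans 48861968 to 48871683, Tgtp1 48985327 to 48994172 and Tgtp2 49057194 to 49064206 on chromosome 11, all on the minus strand. Igtp (58199556 to 58207591) and Irgm2 (58199618 to 58222782) lie further along that chromosome on the plus strand. Gbp7 (142530342 to 142550149), Gbp3 (142560026 to 142573209) and Gbp2 (142620602 to 142638008) lie on chromosome 3, plus strand, and Gbp9 (105077630 to 105139539) on chromosome 5, minus strand. Within 200 kb of a member, 22 protein-coding genes outside the families were tested in B16F10 given HOCl. Of these, 8 were higher and 0 lower by edgeR, beside 14.7% higher and 13.5% lower of all genes tested, and their median log2 fold change was 0.08. Zfp62, near Tgtp2, was higher by 0.55 ± 0.06 (edgeR adjusted p 7.56e-05), and Trim41 by 0.30 ± 0.05 (0.00141).

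Finally, the profile over the 9 libraries was compared with all genes of at least 1 CPM on average. The measure was the root mean square distance, in log2(CPM + 1) centred on each gene, from the mean profile of the members. Of 16246 genes, the 8 nearest were AU020206 and Exosc8 (0.18 each), Adk (0.20), Psme2 (0.21), Parp14 (0.22), Rpl21-ps15, St6galnac3 and Zfp362 (0.24 each). Psme2, a subunit of the proteasome activator PA28, averaged 55.2 CPM in B16F10 with HOCl and 76.9 CPM untreated, and 61.3 CPM in T cells with HOCl against 119 CPM in untreated T cells. The members' own distances to that mean ran from 0.13 for Gbp7 and 0.25 for Igtp to 1.16 for Irgm1 and 1.83 for Gbp9, so several members were further from their mean than these other genes.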

How the data were processed

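Per the submitters' processing notes, the build was mm10 and the tools were STAR 2.7.1a, featureCounts 1.6.0, DESeq2 1.22.2 and FastQC 0.11.8; the sources used here do not give the annotation, strand setting or treatment of reads with several matches. The authors deposited 1 table per library with an integer read count for each gene. The authors' deposited tables also gave a log2 fold change and an adjusted p-value per gene, used only for signs and sizes side by side. Members, gene lists and rules were chosen with earlier results of these data known.

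Counts were tested with edgeR 4.0.16 (R 4.3.3): filterByExpr, TMM, robust quasi-likelihood fit and F test on the groups compared, Benjamini-Hochberg over all genes tested, threshold 0.05. SE was taken as the size of the log2 fold change over the root of the F statistic. For the members in B16F10 given HOCl it describes spread and is not a test. The T cell HOCl fit had 1 residual degree of freedom and assumed that the HOCl library varied like the untreated ones. The procedure was tested on simulated data. CPM is per M gene counts; lengths are union exons of GENCODE M21, which held 54809 of the 54838 gene IDs. At 0 counts a gene could stand at up to 3 counts, 0.234 CPM for the T cell HOCl library and 0.0489 to 0.0654 CPM elsewhere; floors and intervals cover counting error only. RefSeq windows were matched by symbol.

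All members were named, other IRG and GBP genes with a call or at least 1 CPM in any group, up to 3 called genes per direction and pathway list, and the 8 nearest profiles. Alternatives were DESeq2 size factors, no TMM, no filter, a stricter filter (1 CPM and 50 mean counts), DESeq2 1.42.0, all 9 libraries in 1 fit, Tgtp1 and Tgtp2 added, the replicate number as a block, leaving out each library, and 0.5 CPM added to group means; leaving out mitochondrial genes was chosen after seeing the data. Replicates differed beyond counting noise (chi-square per degree of freedom 3.61 to 386), so each library counted once. Proteins were not analysed here. One gene of the pathway lists is not reported here and is left out of the counts of its list.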

Additional observations from a re-analysis of the deposited data

Results flagged for a closer look

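Irgm1 moved in opposite directions with HOCl in the 2 cell types by CPM: every B16F10 HOCl library (103 to 109 CPM) lay below every untreated B16F10 library (164 to 176 CPM), while the T cell HOCl library (51.0 CPM) lay above both untreated T cell libraries (40.0 and 46.9 CPM). The log2 ratio of mean CPM, HOCl over untreated, was 0.23 in T cells and -0.68 in B16F10, a difference of 0.91. The difference was not tested, it rests on 1 T cell HOCl library with melanocyte marker RNA, and after TMM scaling both values were negative (-0.67 in T cells and -0.71 in B16F10).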

How the results depend on the processing

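The log2 fold changes of the members in B16F10, HOCl over untreated, kept their sign under all alternatives run, and the widest ranges were those of Tgtp1 (-1.97 to -0.80) and Gbp9 (-1.13 to -0.30). With all 9 libraries in 1 fit, 26 genes were lower and 11 higher in all, against 2178 and 2366; without 1 library each the counts of all genes lower ran from 1410 to 2634, with 1432 without HOCl replicate 2 and 1410 without HOCl replicate 3. Between untreated cell types, 1 member was higher and 5 were lower, and 6 were lower with DESeq2 and with the stricter filter. Over all genes, 6490 of 18352 tested were lower in the main fit, 6907 of 18352 with DESeq2 and 5227 of 13511 with the stricter filter. Leaving out any 1 untreated B16F10 library kept 1 member higher and 5 lower, beside 5588 to 5599 genes lower of 17935 to 18060 tested. Irgm2 changed sign with DESeq2 size factors (-0.01), the stricter filter (-0.14), DESeq2 (-0.01) and without an untreated B16F10 replicate 1 (-0.06) or 2 (-0.04) or T cell replicate 1 (-0.01), against 0.18 without T cell replicate 2; Iigp1 with the stricter filter (-0.04) and without T cell replicate 2 (-0.19, against 0.66 without replicate 1); Gbp3 with the stricter filter (-0.04); and Irgq without T cell replicate 1 (0.44, against -0.69 without replicate 2). In T cells, members lower fell to 3 with library totals and 3 with the stricter filter. Genes lower over all were 1928 of 32499 and 1695 of 14687 tested, against 4838 of 32499 in the main fit. Genes higher were 3731 with the stricter filter and 9616 with DESeq2, against 15639. Irgm1 had 0.24, 0.25 and 0.23 there with library totals, the stricter filter and 0.5 CPM added. In B16F10 given HOCl, Gbp4 changed sign with the replicate block (-0.14) and without untreated replicate 3 (-0.06) or HOCl replicate 3 (-1.42), and reached 0.71 without HOCl replicate 2. The cause of these shifts was not tested.

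Same-numbered B16F10 libraries did not deviate together (correlations 0.17, -0.06 and 0.14), nor did same-numbered untreated libraries of the 2 cell types (-0.36 and -0.31), so the numbers were not taken as pairs. With the replicate block 2567 genes were lower and 2726 higher in B16F10. Between untreated cell types 4 members were then lower and 1 higher, beside 4763 genes lower and 5320 higher of 18352 tested. Depth limits Tgtp1 and Gbp9 in B16F10 and Iigp1 and Tgtp1 in the T cell HOCl library, and the lone library has no replicate check. With mitochondrial genes left out, an alternative chosen after seeing the data, the counts of members called were the same in the comparison of untreated cell types and in T cells.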
